A study of Mus musculus with 2 samples.

Results

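Immunoproteasome and peptide loading genes were followed through 9 members: Psmb8, Psmb9, Psmb10, Psme1, Psme2, Tap1, Tap2, Tapbp and Erap1. They were taken as a named list, which was chosen with earlier results of these data known. Each matched 1 of the 33696 gene entries of the count matrices by symbol. The cells came from a mouse model of autoimmune hepatitis and were measured by droplet-based 3' single-cell RNA sequencing. The KO library came from Alb-Cre Bicd2fl/fl mice, in which Cre under the albumin promoter acts in hepatocytes, and the WT library from Alb-WT Bicd2fl/fl mice, which carry the same floxed alleles without Cre. Bicd2 encodes an adaptor that links cargo to the dynein motor. All mice of both genotypes were given S-100, a soluble liver extract emulsified in complete Freund's adjuvant, at 2.5 mg into the peritoneum each week for 3 weeks. The treatment text describes liver leukocytes purified over Percoll, sorted alive and pooled, but the sample labels call the cells peritoneal immune cells and tag the treatment as HFD, and the labels do not settle this. Strain, age and the number of mice are not given in the sources used here. Each genotype is 1 library of pooled cells, so no difference below has a replicate check or a p-value, and every interval is a 95% interval for counting error only.

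Cells cut their own and foreign cytosolic proteins with the proteasome, and some of the resulting peptides are shown at the cell surface on MHC class I. In cells exposed to interferon the constitutive catalytic subunits of the 20S core give way to the inducible subunits encoded by Psmb8, Psmb9 and Psmb10, which forms the immunoproteasome. The PA28 activator, built from the products of Psme1 and Psme2, caps this core, the TAP transporter made of Tap1 and Tap2 carries peptides into the endoplasmic reticulum, tapasin (Tapbp) helps load them on class I, and the aminopeptidase encoded by Erap1 trims their ends.

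Promoter windows from RefSeq, reaching from 250 bases before to 50 bases after the annotated start, were on hand for 8 of the 9 members and not for Tap2. Their build is GRCm38.p6, while the submitters' processing notes name mm39 for the deposited counts, so the windows serve as sequence context only. Tap1 and Psmb9 lie on chromosome 17 in opposite directions with starts 226 bases apart, and their windows overlap by 275 bases. This pair is printed because the balance of its transcripts is compared below, and Psmb8, Psme1 and Erap1 because their windows hold a match to a searched motif. In the first line, chr17:34187306-34187605 on the plus strand, capitals mark the 225 bases between the starts of both genes. In the other lines, chr17:34197945-34198244, chr14:55578244-55578543 and chr13:74639603-74639902, all on the plus strand, capitals mark the motif match.
Tap1-Psmb9: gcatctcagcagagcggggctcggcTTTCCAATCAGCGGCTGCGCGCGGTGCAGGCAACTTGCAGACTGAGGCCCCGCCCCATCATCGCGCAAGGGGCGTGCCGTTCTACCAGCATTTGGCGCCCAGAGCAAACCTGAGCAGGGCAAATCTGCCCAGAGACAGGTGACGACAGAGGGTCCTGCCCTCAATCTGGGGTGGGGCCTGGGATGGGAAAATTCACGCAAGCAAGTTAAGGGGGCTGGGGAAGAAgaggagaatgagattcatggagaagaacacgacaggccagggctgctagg
Psmb8: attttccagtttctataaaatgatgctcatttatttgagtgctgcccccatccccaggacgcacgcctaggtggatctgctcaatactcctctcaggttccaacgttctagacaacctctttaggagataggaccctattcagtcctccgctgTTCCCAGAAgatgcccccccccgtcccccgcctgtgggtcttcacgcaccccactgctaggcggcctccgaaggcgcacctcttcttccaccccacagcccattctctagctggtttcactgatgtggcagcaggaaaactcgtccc
Psme1: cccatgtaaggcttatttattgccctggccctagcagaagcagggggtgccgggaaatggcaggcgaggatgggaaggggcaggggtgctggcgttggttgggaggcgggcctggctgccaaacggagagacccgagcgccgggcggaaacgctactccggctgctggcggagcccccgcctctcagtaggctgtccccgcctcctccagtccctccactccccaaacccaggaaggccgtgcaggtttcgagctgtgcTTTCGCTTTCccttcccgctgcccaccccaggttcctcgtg
Erap1: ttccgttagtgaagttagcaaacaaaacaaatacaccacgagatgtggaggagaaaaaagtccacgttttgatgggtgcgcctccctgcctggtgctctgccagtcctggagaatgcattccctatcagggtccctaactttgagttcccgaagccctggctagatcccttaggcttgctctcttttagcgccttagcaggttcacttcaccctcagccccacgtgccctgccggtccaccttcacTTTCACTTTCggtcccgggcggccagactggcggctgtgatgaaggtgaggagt
A form of the interferon-stimulated response element, GAAA, any 2 bases and GAAA, was searched on both strands and matched in the windows of Psme1 and Erap1, as it did in 3.43% of 32817 RefSeq mouse windows of the same length. A form of the gamma-activated sequence, TTC, any 3 bases and GAA, matched in the Psmb8 window and in 8.29% of all windows. A form of the NF-kB site, GGG, any 2 bases and TTTCC, matched in 1.63% of all windows and in none of the members' windows. A match describes letters in a window and says nothing of a factor's binding.

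After barcodes with at least 200 genes and at most 20% mitochondrial UMIs were kept and marked doublets removed, 15619 KO and 17179 WT cells remained, with a median of 2003 UMIs (unique transcript tags) per KO cell and 2789 per WT cell. Haemoglobin genes took 22.9% of these UMIs in KO and 11.1% in WT, and the libraries shared 177 cell barcodes. Cells were clustered without the 9 members and 28 related genes, and clusters were named from marker genes. A total of 8 classes had at least 100 cells in each library: T-like (4815 KO and 5647 WT cells), NK-ILC1-like (1180 KO and 1565 WT), B-like (1508 KO and 711 WT), monocyte-macrophage-like (1852 KO and 1708 WT), dendritic-cell-like or DC-like (567 KO and 591 WT), plasmacytoid-dendritic-cell-like or pDC-like (329 KO and 245 WT), neutrophil-like (1502 KO and 4320 WT) and erythroid-like (1029 KO and 1513 WT). Each marker of the 7 leukocyte classes was seen in its own class in both libraries. The class's own markers summed to 11377 CPM in KO and 18824 CPM in WT monocyte-macrophage-like cells and to 173053 CPM in KO and 302299 CPM in WT neutrophil-like cells, and the part of this in the results was not tested. Bicd2 was measured at 8.20 to 19.9 CPM in the 7 leukocyte classes of KO and at 9.60 to 32.0 CPM in those of WT, and was lower in KO in each. Its KO over WT ratio was 0.69 in T-like cells (interval 0.58 to 0.81) and 0.58 in NK-ILC1-like cells (0.40 to 0.82). It was 0.60 in monocyte-macrophage-like (0.46 to 0.78) and 0.66 in DC-like cells (0.48 to 0.90). The interval held 1 in B-like, pDC-like and neutrophil-like cells. These values check nothing in hepatocytes, and what lies behind them was not tested. The neutrophil marker list, 11 genes, summed to between 436 and 1459 CPM in the other 6 leukocyte classes of KO and to between 2676 and 4777 CPM in those of WT, with every gene seen except Ly6g at 0 in KO NK-ILC1-like and pDC-like cells. Its part in the results was not tested.

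The members' summed level was lower in the KO library in all 7 leukocyte classes, and of the class sums the difference was largest in monocyte-macrophage-like cells. Levels are in CPM, the UMIs of a gene summed per class and library and scaled to a class total of 1000000, and a member was called lower when the ratio of CPM plus 1 was at least 1.5-fold down in KO. The 9 members together stood at 1228 CPM in KO monocyte-macrophage-like cells and 3211 CPM in WT ones, 2.61-fold lower (interval 2.55 to 2.68). The same sum was 628 CPM in KO and 1272 CPM in WT neutrophil-like cells, 2.03-fold lower, and 2106 CPM in KO and 3699 CPM in WT DC-like cells, 1.76-fold lower. In the lymphoid classes the fold was of similar size. T-like cells had 1525 CPM in KO and 2508 CPM in WT, 1.64-fold lower, NK-ILC1-like cells 1271 CPM in KO and 2326 CPM in WT, 1.83-fold lower, and B-like cells 979 CPM in KO and 1653 CPM in WT, 1.69-fold lower. The pDC-like cells had 1403 CPM in KO and 2288 CPM in WT, 1.63-fold lower. Within clusters the order was another: the sum was 2.91-fold lower in neutrophil-like cluster 1, beside 2.45-fold, 2.39-fold and 2.04-fold in the monocyte-macrophage-like clusters 6, 10 and 14. DC-like cells held the highest summed level in both libraries, and monocyte-macrophage-like cells came next to them in WT but not in KO.

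**Figure D1:**
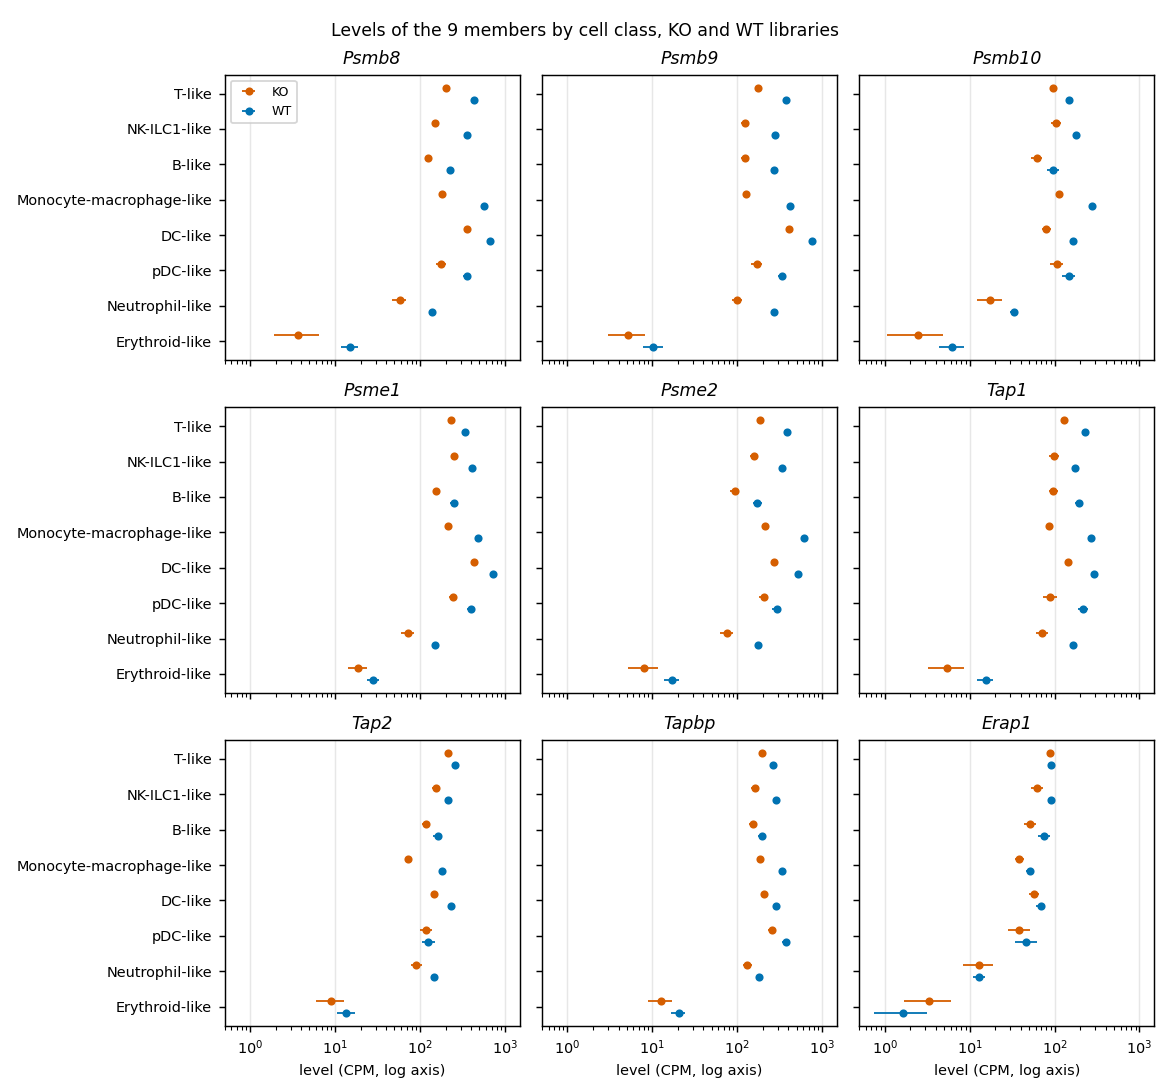
Levels of each member (CPM, log axis) in the 8 cell classes, KO in orange above WT in blue; points are sums over all cells of 1 library and bars are exact 95% Poisson intervals for counting error. For Psmb8 the KO point lies left of the WT point in every class, with 57.4 CPM in KO and 139 CPM in WT neutrophil-like cells and 355 CPM in KO and 672 CPM in WT DC-like cells, while the Erap1 points nearly coincide in T-like cells.

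In monocyte-macrophage-like cells 8 of the 9 members were called lower, where 12.6% of the 11971 genes tested were, and the members' median log2 ratio was -1.30 beside -0.08 for all genes. In T-like cells 5 members were called lower with 17.1% of all genes, at a median of -0.64 beside -0.01. In B-like cells 6 were called with 7.51% of all genes, at a median of -0.69 beside -0.02. In DC-like cells 7 were called with 10.1%, at a median of -0.88 beside -0.09. Each of these 4 medians lay below that of all genes. In NK-ILC1-like cells 7 were called with 19.9%, at a median of -0.81 beside -0.16, and in pDC-like cells 4 with 17.6%, at a median of -0.53 beside -0.17. In neutrophil-like cells 7 were called with 24% of all genes, at a median of -1.05 beside -0.02. Over the 63 pairs of a member and a leukocyte class, the log2 ratio was below 0 in 63, called lower in 44, the interval of the ratio lay below 1 in 58, and no pair was called higher, whereas Tap2 in pDC-like and Erap1 in neutrophil-like cells turned to 0.08 and 0.0021 under DESeq2 scaling. Neutrophil-like Erap1 also stood at 0.32 with KO clusters weighted to the WT makeup, and at 0.59 in cluster 12 and 0.96 in cluster 13. Both were past the threshold for higher, on 7 and 3 KO UMIs, and both intervals held no difference. The shares of all genes called higher were 18.7% for neutrophil-like, 11.2% for T-like, 7.12% for B-like, 6.64% for NK-ILC1-like, 6.46% for monocyte-macrophage-like, 6.06% for DC-like and 5.81% for pDC-like cells. At least 2-fold lower were 7 members in monocyte-macrophage-like cells (4.7% of all genes), 5 in neutrophil-like (11.6%), 3 in T-like (7.68%), 3 in NK-ILC1-like (8.01%), 3 in pDC-like (4.58%), 2 in B-like (1.96%) and 1 in DC-like cells (2.75%).

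Haemoglobin moved with some of these classes and is part of the CPM total. It took 15.6% of UMIs in KO and 1.87% in WT NK-ILC1-like cells, 15.3% in KO and 4.17% in WT monocyte-macrophage-like cells, and 14.9% in KO and 2.96% in WT pDC-like cells. The erythroid marker list, with 8 of its 9 genes seen in every leukocyte class and Ahsp not matched by symbol, summed to between 27912 and 157000 CPM in the leukocyte classes of KO and to between 9389 and 45896 CPM in those of WT. The 7 called members of NK-ILC1-like cells became 5 with haemoglobin genes out of the total, where 13% of all genes were called, and 3 without cells over 10% haemoglobin, where 13.5% were, beside 19.9% before. In monocyte-macrophage-like cells the count was 8 under both, with 8.56% and 8.98% of all genes. TMM scaling, which sets the bulk of genes to no change, moved all log2 ratios up by 0.15 in NK-ILC1-like and 0.17 in pDC-like cells. Under that scaling 6 members were called in NK-ILC1-like cells, with 14.7% of all genes, and Tap2 in pDC-like cells stood at 0.073.

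**Figure D2:**
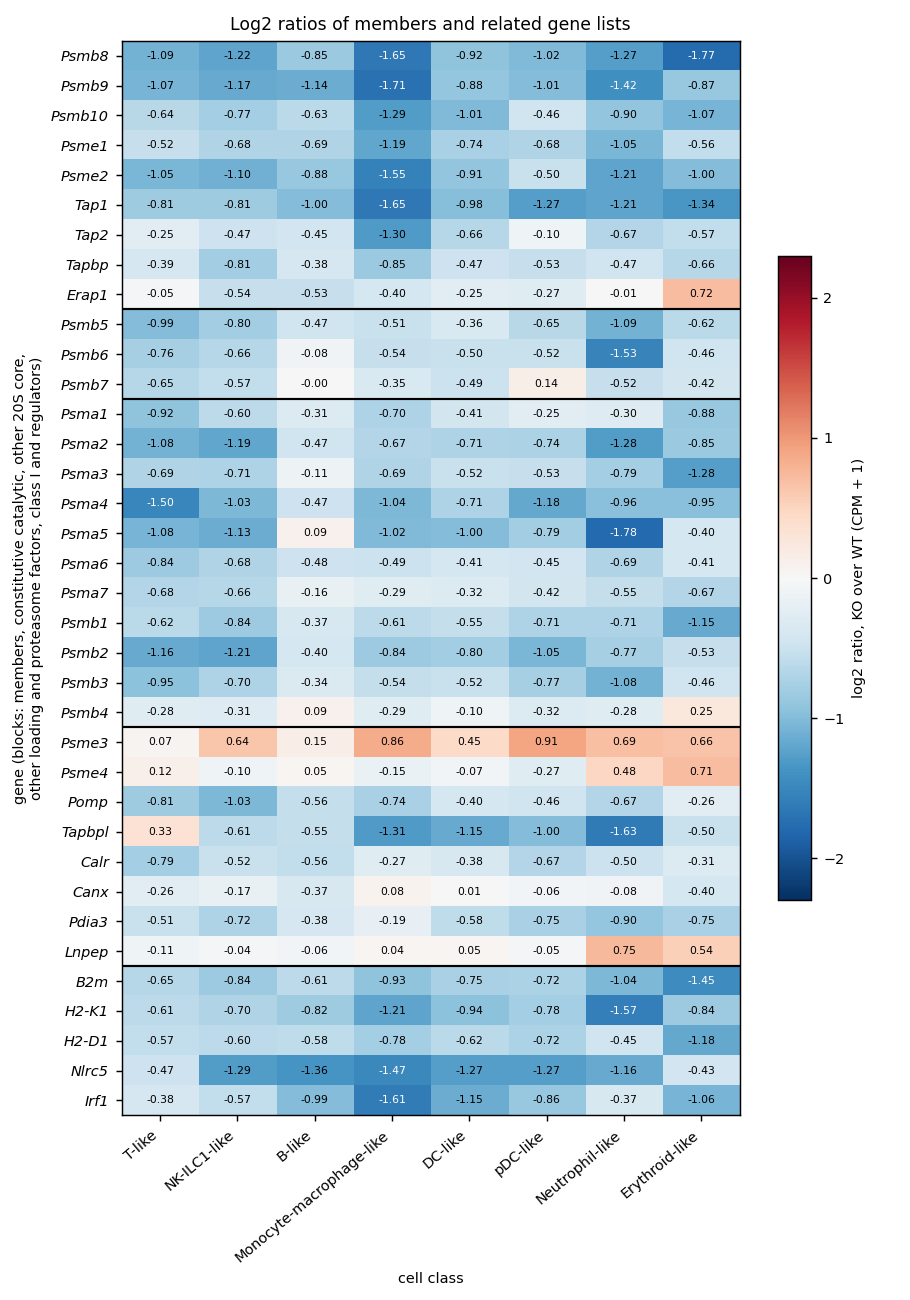
Log2 ratios of CPM plus 1, KO over WT, for the members (top block) and the related gene lists (rows) in 8 cell classes (columns); blue is lower in KO and red higher. The members are blue in all leukocyte classes, with -1.71 for Psmb9 in the monocyte-macrophage-like column, and Psme3 is red in that column at 0.86.

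Of the inducible catalytic subunits, Psmb8 and Psmb9 were among the members that differed most. Psmb8, the inducible chymotrypsin-like subunit, had 180 CPM in KO and 569 CPM in WT monocyte-macrophage-like cells, 3.15-fold lower (interval 2.97 to 3.35). Psmb9, which replaces Psmb6, had 126 CPM in KO and 416 CPM in WT cells of that class, 3.29-fold lower (3.06 to 3.54). Both genes were called lower in all 7 leukocyte classes, although Psmb9 was not called within T-like clusters 0 and 11, at log2 ratios of -0.46 and -0.36. In T-like cells Psmb8 stood at 201 CPM in KO and 428 CPM in WT, 2.13-fold lower (2.03 to 2.24), and in DC-like cells at 355 CPM in KO and 672 CPM in WT, 1.89-fold lower (1.77 to 2.03). In neutrophil-like cells Psmb9 stood at 99.4 CPM in KO and 268 CPM in WT, 2.69-fold lower (2.33 to 3.13). Psmb10, which replaces Psmb7, was called lower in 6 of the 7 classes, with 114 CPM in KO and 280 CPM in WT monocyte-macrophage-like cells (2.45-fold lower, 2.27 to 2.66), and the exception was pDC-like cells at 106 CPM in KO and 146 CPM in WT. Its T-like log2 ratio of -0.64 no longer passed the threshold after thinning (-0.47), with KO clusters weighted to the WT makeup (-0.46) or within clusters 0, 2, 5 and 11 (-0.46 to -0.28). DC-like cells had the highest Psmb8 and Psmb9 levels in both libraries, and neutrophil-like cells the lowest of the leukocytes, although for Psmb9 the WT neutrophil-like level did not differ from the WT B-like level beyond counting error.

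The PA28 activator genes followed. Psme2, the beta subunit, had 210 CPM in KO and 618 CPM in WT monocyte-macrophage-like cells, 2.94-fold lower (2.77 to 3.11), and 185 CPM in KO and 383 CPM in WT T-like cells, 2.07-fold lower (1.97 to 2.18). Psme1, the alpha subunit, had 212 CPM in KO and 486 CPM in WT monocyte-macrophage-like cells, 2.29-fold lower (2.16 to 2.43), but 235 CPM in KO and 338 CPM in WT T-like cells, 1.44-fold lower (1.37 to 1.51). Both subunits pair in 1 ring. Psme1 made up 56.0% of the pair's UMIs in KO and 46.9% in WT T-like cells, a difference of 9.08 percentage points (interval 7.39 to 10.8), and the difference was also above 0 in NK-ILC1-like, monocyte-macrophage-like and DC-like cells. The intervals held 0 in B-like, pDC-like and neutrophil-like cells. The T-like gap varied within clusters, with a share of 54.4% in KO and 52.7% in WT in cluster 0 and 50.6% in KO and 46.1% in WT in cluster 2. The share was 61.8% in KO and 56.3% in WT in cluster 5, and 50.7% in KO and 45.0% in WT in cluster 11. In cluster 22 it was 54.4% in KO and 45.4% in WT, a gap close to that of the class. With KO clusters weighted to the WT makeup, the T-like log2 ratio was -0.38 for Psme1 and -0.67 for Psme2. Psme2 shares sequence with the near-identical gene Psme2b, so the split of reads between them is uncertain. Psme2b took 17.5% of the UMIs of both in KO and 9.60% in WT T-like cells, and its own ratio intervals held 1 in all 8 classes. Summed with Psme2b, the Psme2 difference was 1.89-fold in T-like and 2.64-fold in monocyte-macrophage-like cells.

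Among the transporter genes, Tap1 differed more than Tap2. Tap1 had 86.3 CPM in KO and 272 CPM in WT monocyte-macrophage-like cells, 3.15-fold lower (2.89 to 3.45), and was called lower in all 7 leukocyte classes. The Tap1 call was not met within T-like clusters 0 and 11, at log2 ratios of -0.35 and -0.55, or within NK-ILC1-like cluster 8. In NK-ILC1-like cells it was also lost without cells over 10% haemoglobin and with KO clusters weighted to the WT makeup. Tap2 had 73.0 CPM in KO and 181 CPM in WT monocyte-macrophage-like cells, 2.48-fold lower (2.25 to 2.74), and was called lower in 3 classes, the others being DC-like cells, where TMM scaling ended the call, and neutrophil-like cells, where weighting KO clusters to the WT makeup did. In pDC-like cells Tap2 had 117 CPM in KO and 126 CPM in WT, and its interval held no difference. Tap1 made up a smaller share of the UMIs of the pair in KO in every leukocyte class, and all 7 intervals of the difference lay below 0. The share was 37.7% in KO and 47.3% in WT T-like cells, 43.1% in KO and 63.1% in WT pDC-like cells, and 54.2% in KO and 60.0% in WT monocyte-macrophage-like cells. Within T-like clusters the gap was smaller, with 36.4% in KO and 41.8% in WT in cluster 0 and 40.3% in KO and 44.9% in WT in cluster 2. The largest gap of these clusters was in cluster 5, with 38.5% in KO and 45.7% in WT. Of the monocyte-macrophage-like clusters, cluster 10 had no gap, with 58.1% in KO and 58.0% in WT. Cluster 6 had 55.4% in KO and 61.7% in WT, and cluster 14 had 45.7% in KO and 52.6% in WT. These shares compare 2 genes that may be captured unequally, so only the KO to WT difference is read from them. In NK-ILC1-like cells Tap2 had 156 CPM in KO and 216 CPM in WT, and its log2 ratio of -0.47 became 0.20 within cluster 8 and 0.048 with KO clusters weighted to the WT makeup, while within cluster 9 it was -0.64 and called lower.

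Tap1 and Psmb9 run away from each other from the starts in the first printed window. Their balance differed between KO and WT beyond counting error in 2 of the 7 leukocyte classes. Tap1 made up 40.6% of the UMIs of both genes in KO and 39.6% in WT monocyte-macrophage-like cells, and 26.4% in KO and 27.8% in WT DC-like cells, with intervals of the difference that held 0. The interval held 0 in 5 of the 7 leukocyte classes, B-like cells among them, at 43.9% in KO and 41.7% in WT (-3.00 to 7.51 points). An interval that holds 0 does not show an equal balance. In T-like cells the share was 42.5% in KO and 38.3% in WT, and in NK-ILC1-like cells 44.2% in KO and 38.2% in WT, and these intervals lay above 0. In GENCODE M21, of the GRCm38 build, the annotated Tap1 and Psmb9 genes overlap on opposite strands, and whether counting used the strand is not given in the sources used here. In that annotation Tapbp overlaps Zbtb22 on its own strand, and Psmb8, Psmb10, Psme1, Tap2 and Erap1 overlap a gene on the opposite strand.

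**Figure D3:**
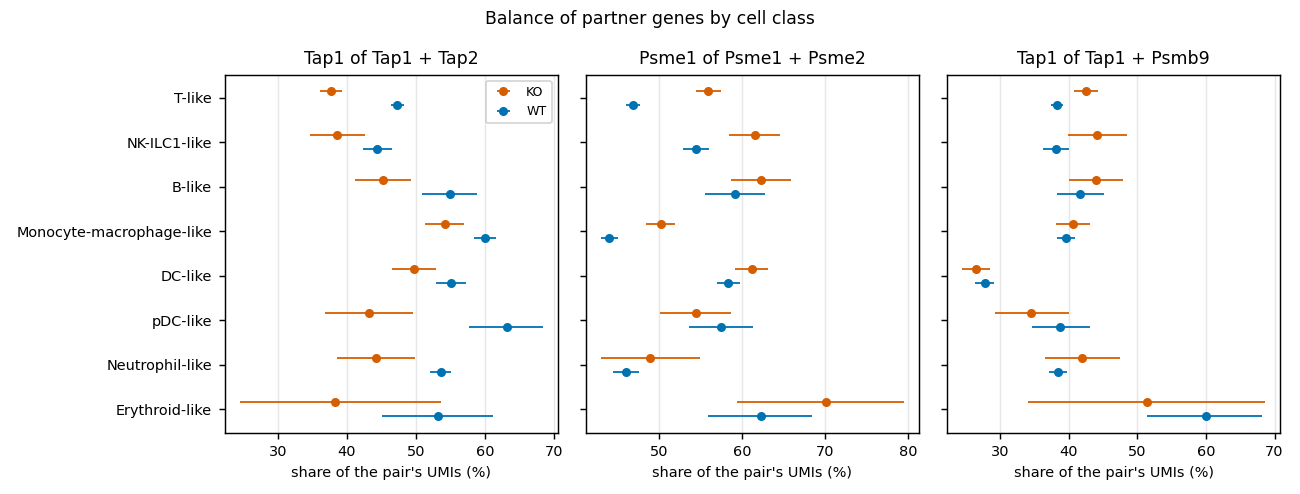
Share of a gene in the UMIs of a pair (%), by cell class, KO in orange above WT in blue with exact 95% Clopper-Pearson intervals. In the first panel the KO share of Tap1 in Tap1 plus Tap2 lies left of WT in all classes, and in the third panel the shares of Tap1 in Tap1 plus Psmb9 nearly coincide in monocyte-macrophage-like cells (40.6% in KO and 39.6% in WT).

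Tapbp and Erap1, whose products act in the endoplasmic reticulum, were called in 2 classes and in none. Tapbp had 187 CPM in KO and 338 CPM in WT monocyte-macrophage-like cells, 1.80-fold lower (1.69 to 1.92), and was called lower there and in NK-ILC1-like cells only. The NK-ILC1-like call was not met within either of the clusters of that class, at -0.44 in cluster 8 and -0.56 in cluster 9. In the monocyte-macrophage-like cluster 14 its log2 ratio was 0.069, with 64 WT cells behind it. Erap1 was not called in any leukocyte class. It had 88.4 CPM in KO and 91.7 CPM in WT T-like cells, a ratio whose interval held no difference, and 38.7 CPM in KO and 51.3 CPM in WT monocyte-macrophage-like cells, 1.33-fold lower (1.14 to 1.55). Its interval also held no difference in DC-like, pDC-like and neutrophil-like cells. In T-like cells Erap1, Tap2 and Tapbp were the 3 members nearest to equality.

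The monocyte-macrophage-like ratio lay below the T-like ratio for all 9 members, with 9 of 9 intervals of the difference of log2 ratios below 0, from -0.35 for Erap1 to -1.07 for Tap2. In NK-ILC1-like and neutrophil-like cells 4 of 9 such intervals lay below 0, in DC-like cells 3 lay below and 3 above, and in B-like and pDC-like cells 1 lay on either side. These differences use class totals with haemoglobin in them. It took 15.3% in KO and 4.17% in WT monocyte-macrophage-like cells, but 3.84% in KO and 3.05% in WT T-like cells. Its part in these intervals was not tested. The order of the classes by level differed between the libraries for several members. For Tap1, the WT order put monocyte-macrophage-like cells beside DC-like cells at 272 and 288 CPM, which did not differ beyond counting error. In KO the order ran from DC-like at 146 CPM and T-like at 131 CPM to NK-ILC1-like, B-like, pDC-like and monocyte-macrophage-like cells at 98.1, 97.2, 89.0 and 86.3 CPM, and no neighbours among these last 4 differed beyond counting error. For Tap2, T-like cells were highest in both libraries, at 216 CPM in KO and 256 CPM in WT.

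The balance of catalytic subunit transcripts was measured as the inducible share, the UMIs of Psmb8, Psmb9 and Psmb10 among those and their constitutive partners Psmb5, Psmb6 and Psmb7, which does not depend on the library total. The share was 61.3% in KO and 77.2% in WT monocyte-macrophage-like cells, lower by 15.9 percentage points (interval -17.4 to -14.4). It was 68.1% in KO and 78.0% in WT B-like cells, and 73.4% in KO and 75.7% in WT T-like cells, where the difference was -2.27 points (-3.47 to -1.09). The T-like difference varied with the clusters, at -1.29 points in cluster 0, -3.67 in cluster 11, -7.78 in cluster 5 and -4.27 with KO clusters weighted to the WT makeup. The share was 68.9% in KO and 74.4% in WT NK-ILC1-like cells, 75.4% in KO and 81.0% in WT DC-like cells, and 70.9% in KO and 77.5% in WT pDC-like cells. All 6 of these intervals lay below 0. In neutrophil-like cells the share was 72.3% in KO and 75.9% in WT, and the interval of the difference, -7.98 to 0.52, held 0, whereas the difference was -12.6 points after thinning to 1000 UMIs per cell and -13.6 points within cluster 1. Of the separate pairs, Psmb9 with Psmb6 was below 0 in 5 leukocyte classes, and Psmb8 with Psmb5 and Psmb10 with Psmb7 in 3 each.

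**Figure D4:**
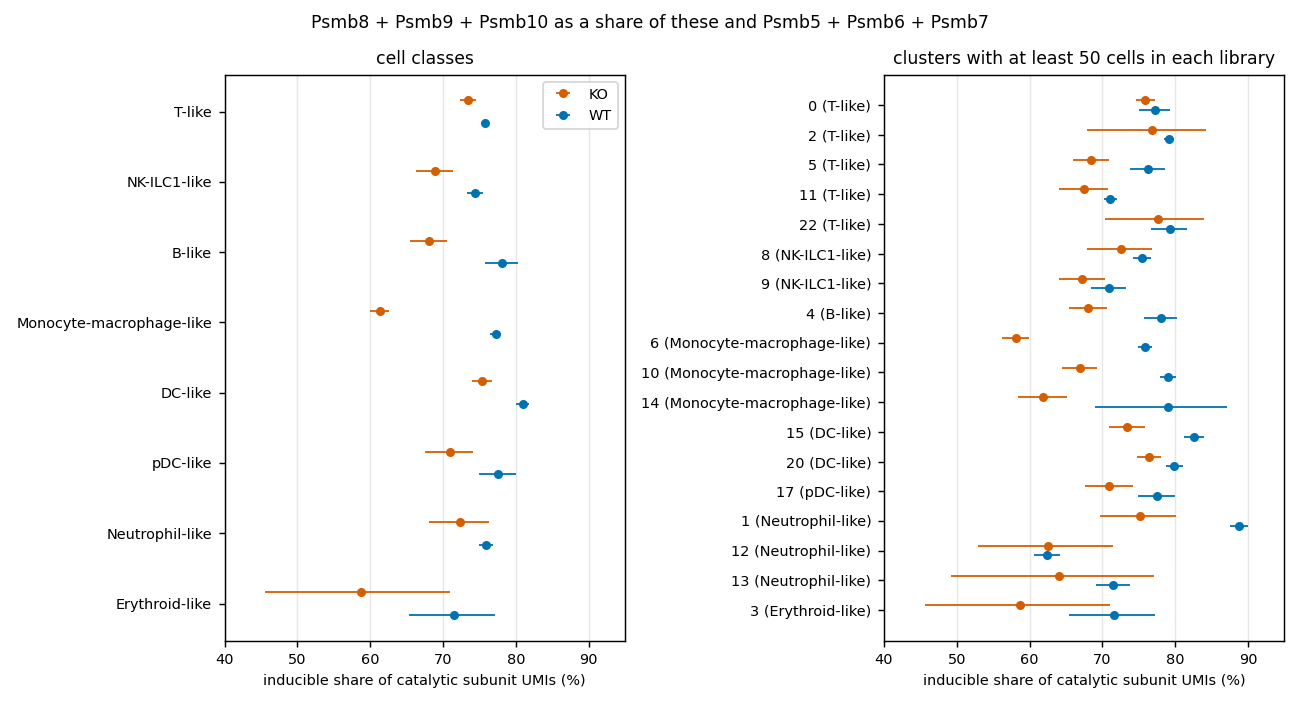
Inducible share of catalytic subunit UMIs (%) by cell class, KO in orange above WT in blue with exact 95% Clopper-Pearson intervals. The points stand apart in monocyte-macrophage-like cells (61.3% in KO and 77.2% in WT) and lie close together in the T-like sums (73.4% in KO and 75.7% in WT).

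The constitutive subunits and the rest of the 20S core were read beside these shares. Psmb5, Psmb6 and Psmb7 were all called lower in T-like cells, 3 of 3 with 17.1% of all genes, and none of them was in B-like, monocyte-macrophage-like or DC-like cells. Psmb5 and Psmb6 were called in NK-ILC1-like cells (19.9% of all genes), and Psmb5 alone in pDC-like cells (17.6%). In neutrophil-like cells Psmb5 and Psmb6 were called (24%), both at least 2-fold lower (11.6%). The median of the 3 genes there was -1.09, beside -1.05 for the members. Of the other 11 core subunits, 10 were called lower in T-like cells, with a median log2 ratio of -0.92. In NK-ILC1-like cells 10 were, with 19.9% of all genes, at a median of -0.71. In B-like cells 0 of 11 were called (7.51% of all genes), at a median of -0.34. The count was 8 in neutrophil-like (24%), 7 in monocyte-macrophage-like (12.6%), 6 in pDC-like (17.6%) and 4 in DC-like cells (10.1%). Psma4, an alpha-ring subunit, had the lowest value among them in T-like cells at -1.50. In T-like cells these 11 were thus at a lower median than the members' -0.64, as they were in pDC-like cells (-0.71 beside -0.53). In NK-ILC1-like, B-like, monocyte-macrophage-like, DC-like and neutrophil-like cells they were at a higher one.

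Other factors of the pathway did not share 1 direction. The shares of all genes called lower or higher in each class are those given above. Psme3, which encodes the PA28 gamma subunit of a nuclear activator, was called higher in 4 leukocyte classes, with log2 ratios of 0.91 in pDC-like, 0.86 in monocyte-macrophage-like, 0.69 in neutrophil-like and 0.64 in NK-ILC1-like cells. It stood at 0.45 in DC-like, 0.15 in B-like and 0.07 in T-like cells. Its level was highest in erythroid-like cells, at 446 CPM in KO and 282 CPM in WT, beside 74.2 and 40.4 CPM in monocyte-macrophage-like cells. Haemoglobin took more of the UMIs in KO than in WT in every leukocyte class. The part of erythroid RNA in the Psme3 ratios was not tested. Tapbpl, the tapasin-related editor TAPBPR, was called lower in 5 classes, from -0.61 in NK-ILC1-like to -1.63 in neutrophil-like cells, and stood at 0.33 in T-like cells. The neutrophil-like value rested on 8 KO UMIs, with an interval of 1.79-fold to 8.48-fold lower. Pomp, the maturation factor of the core, was below 0 in all 7 leukocyte classes and called in 4. The chaperone Canx was called in none, and Calr, its soluble relative, in T-like and pDC-like cells only. Of 5 class I genes and regulators, all 5 were called lower in pDC-like (17.6% of all genes), DC-like (10.1%) and monocyte-macrophage-like cells (12.6%). In monocyte-macrophage-like cells the interferon-induced factor Irf1 was at -1.61 and the class I transactivator Nlrc5 at -1.47. In T-like cells 2 of the 5 were called (17.1% of all genes), B2m and H2-K1, and Nlrc5 and Irf1 stood at -0.47 and -0.38. The count was 4 in B-like (7.51%) and 4 in NK-ILC1-like cells (19.9%), with Nlrc5 at -1.36 and -1.29. It was 3 in neutrophil-like cells (24%).

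Classes are sums of clusters, and the cluster that holds most of a class differed between the libraries in T-like and NK-ILC1-like cells. T-like cells were mostly cluster 0 in KO (3226 of 4815), led by Il4, Zbtb16 and Trgc1, and mostly cluster 2 in WT (3142 of 5647), led by Cd4, Il1rl1 and Slamf1. Within cluster 0, 3 members were called lower (Psmb8, Psme1 and Psme2), where 9.38% of genes were, and within cluster 2, 4 were, with 28.3% of genes and 88 KO cells. In the dividing cluster 11, led by Aspm and Kif11, 1 member was called, with 16.1% of genes. Psmb8 in cluster 0 stood at 221 CPM in KO and 349 CPM in WT, 1.58-fold lower instead of 2.13-fold over the whole class. NK-ILC1-like cells were mostly cluster 9 in KO (895 of 1180), led by Gzma, Prf1 and Klra8, and mostly cluster 8 in WT (1162 of 1565), led by Xcl1 and Gzmc, with 6 members called lower within cluster 9 (21.6% of genes) and 3 within cluster 8 (16.7%). With KO clusters weighted to the WT makeup, 27 of the 34 member calls in the 5 classes with several clusters remained. The 7 lost were Psmb10 in T-like, NK-ILC1-like and neutrophil-like cells, Psme1, Tap1 and Tapbp in NK-ILC1-like cells, and Tap2 in neutrophil-like cells. Over the 17 leukocyte clusters with at least 50 cells in each library, the members' log2 ratios were below 0 in 148 of 153 cases, and the cluster medians ran from -1.43 to -0.36.

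Monocyte-macrophage-like cells kept the difference within their clusters. Cluster 6, led by Vcan, Fn1 and F13a1, had 8 members called lower, with 13.9% of genes, and an inducible share of 58.1% in KO and 75.9% in WT. Cluster 10, led by C1qa, C1qb and C1qc, also had 8 called, with 15.4% of genes, and a share of 66.9% in KO and 79.0% in WT. Cluster 14, led by Ace, Cd300e and Fabp4, held 671 KO and 64 WT cells and had 5 called (24.3% of genes), with Psmb8 at 120 CPM in KO and 352 CPM in WT. The members' median log2 ratios in these 3 clusters were -1.29, -1.26 and -1.21. DC-like cells differed between their clusters: cluster 15, led by Fscn1 and Cd209a, had 8 members called (14.5% of genes) and a share of 73.4% in KO and 82.6% in WT, and cluster 20, led by Xcr1 and Clec9a, had 6 called (12.4% of genes) and a share of 76.5% in KO and 79.9% in WT.

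In neutrophil-like cells the clusters differed. Cluster 1, led by Csf3r, Nlrp12 and Stfa2l1, held 1312 of 1502 KO and 2269 of 4320 WT cells. Within it Psmb9 had 85.0 CPM in KO and 352 CPM in WT, 4.14-fold lower, Tap1 had 71.5 CPM in KO and 256 CPM in WT, 3.58-fold lower, and Psmb8 had 52.4 CPM in KO and 185 CPM in WT, 3.54-fold lower. The inducible share there was 75.2% in KO and 88.8% in WT. In cluster 12, led by the granule genes Camp, Ngp and Ltf, the share was 62.5% in KO and 62.4% in WT, Psmb9 had 136 CPM in KO and 209 CPM in WT, and 92 KO and 942 WT cells stood behind these values. In cluster 13, led by Gpr27 and Ceacam10 with 58 KO and 794 WT cells, the share was 64.0% in KO and 71.5% in WT. The smallest cluster of the class, cluster 23, led by Cxcl2 and Acod1, had 40 KO and 315 WT cells, and no intervals were computed for it. Psme2 had 705 CPM in KO and 641 CPM in WT, and Tap2 had 639 CPM in KO and 437 CPM in WT. Tapbp (661 CPM in KO, 588 in WT) and Psmb10 (132 in KO, 124 in WT) were also higher in KO. Lower in KO were Psmb8 (198 CPM in KO, 336 in WT) and Psmb9 (308 in KO, 588 in WT). So were Psme1 (176 in KO, 280 in WT), Tap1 (352 in KO, 502 in WT) and Erap1 (0 in KO, 20.1 in WT).

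Per cell, the members were seen together less in KO. Each cell was thinned to 1000 UMIs, which left out 2638 KO and 1919 WT cells, and the members with at least 1 UMI were counted. A monocyte-macrophage-like cell showed 1.07 members on average in KO and 2.39 in WT, and at least 3 members were seen in 10.2% of KO cells (interval 8.76 to 11.7%) and 43.7% of WT cells (41.2 to 46.3%). In DC-like cells at least 3 were seen in 26.5% of KO and 49.0% of WT cells, in T-like cells in 14.3% of KO and 33.0% of WT cells, and in neutrophil-like cells in 2.32% of KO and 14.6% of WT cells. In that last class thinning left out 726 of 1502 KO and 467 of 4320 WT cells, so the cells compared were selected unequally. Psmb8 alone was seen in 15.1% of KO and 36.0% of WT monocyte-macrophage-like cells, and without thinning in 40.7% of KO and 69.0% of WT cells. Cells with no member at all were 35.1% of KO and 7.86% of WT monocyte-macrophage-like cells and 58.6% of KO and 28.9% of WT neutrophil-like cells. In monocyte-macrophage-like cells 0 and 1 members were more frequent in KO, and every higher number seen was more frequent in WT. A sum cannot tell fewer cells with the transcript from less transcript per cell, and at 1000 UMIs a 0 is not absence.

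**Figure D5:**
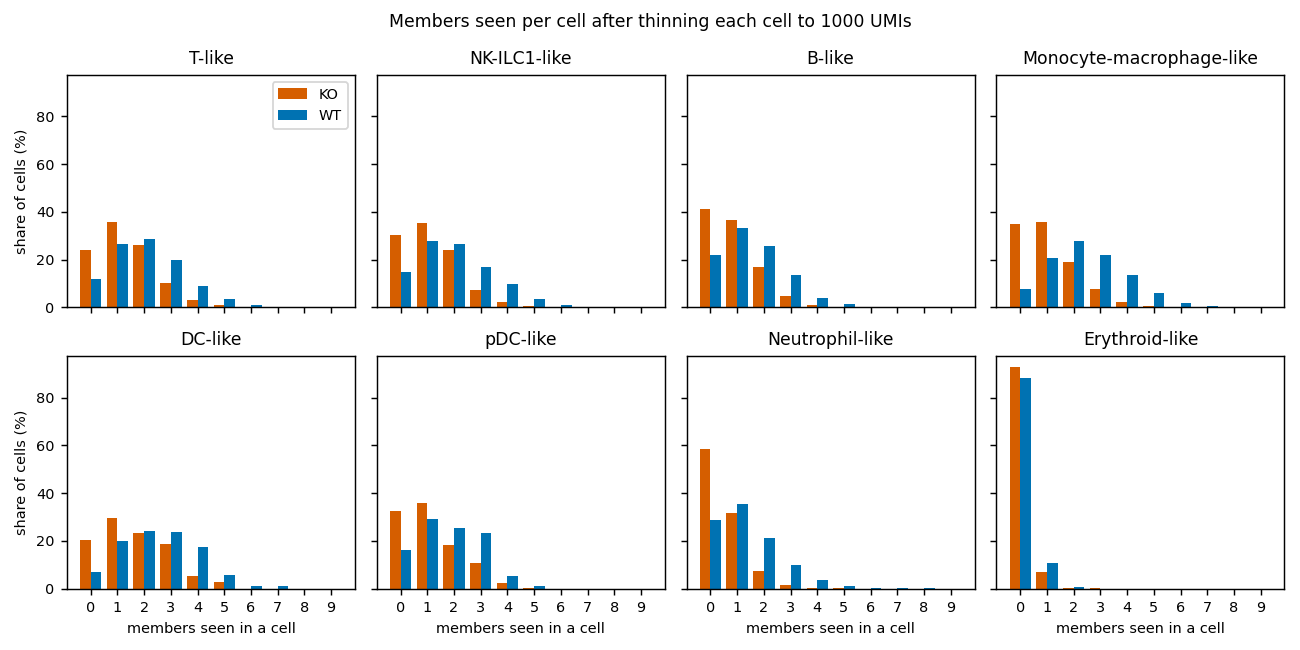
Share of cells (%) by the number of members seen after thinning each cell to 1000 UMIs, KO in orange left of WT in blue, 1 panel per cell class. In monocyte-macrophage-like cells the share with 0 members is 35.1% in KO and 7.86% in WT, and in erythroid-like cells nearly all cells have 0 (92.9% in KO and 88.4% in WT).

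Erythroid-like cells, which lose most transcripts other than haemoglobin as they mature, give the low end. Their 9 members summed to 68.0 CPM in KO and 127 CPM in WT, with 223 UMIs in all in KO and 693 in WT, and Psmb8 was seen in 0.777% of thinned KO cells and 2.05% of thinned WT cells (1.17% of KO and 5.22% of WT cells without thinning). Their median depth was 2954 UMIs in KO and 3452 in WT, beside 3006 in KO and 3692 in WT monocyte-macrophage-like cells. Not every leukocyte class lay far above these shares, since Psmb8 was seen in 4.90% of thinned KO neutrophil-like cells (interval 3.49 to 6.66%) and in 6.26% of them without thinning. In this class 6 members were called lower, with 16% of all genes, 4 were at least 2-fold lower, with 6.69%, and Erap1 was called higher at 0.72, with 19.8% of all genes. But 1 was called lower after subtraction of estimated free RNA, where 7.62% of all genes were, and Psmb9 and Psme2 then stood at 1.54 and 0.40, so no difference is read from it.

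Across the 16 sums of 8 classes and 2 libraries, each member's level followed the mean of the other members, with Pearson's r from 0.893 for Erap1 to 0.989 for Psmb8, and from 0.633 to 0.981 over the 14 sums without erythroid-like cells. Of 10070 other genes with at least 500 UMIs, Commd2 followed the members' mean most closely at r = 0.990, then Psmb2 at 0.989, with Psmb1 and Psma6 also among the first 10. The other first 10 were Mrpl51, Tmem128, Polr1d, Eif6, Phf5a and Mrpl18. Without erythroid-like cells these 10 values were 0.918 to 0.949. The sums share libraries, depth and the haemoglobin share, so these values are descriptions only. Psme3 stood at r = -0.764 over all sums and at 0.202 over the 14 without erythroid-like cells.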

How the data were processed

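The KO and WT libraries, 1 each, were deposited by the authors as matrices of raw UMI counts per gene and barcode, made with Cell Ranger 8.0.1 per the file headers. The submitters' processing notes list mm39 as the build, with Seurat 4.3.0 and another Cell Ranger version, 6.0.1. The KO matrix held 27033 barcodes with 63869430 UMIs and the WT matrix 22197 with 81159013, and no barcode held under 500 UMIs. Barcodes under 200 genes (9283 KO, 1919 WT) or over 20% mitochondrial UMIs (75 KO, 111 WT) were left out. Scrublet in scanpy 1.11.5, with an expected rate of 0.8% per 1000 barcodes, marked 2056 KO (11.6%) and 2988 WT (14.8%) doublets, which were removed.

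Cells of both libraries were clustered with 2000 variable genes, 30 components, 15 neighbours and Leiden resolution 1, giving 26 clusters. The members and related genes, 37 in all, were kept out; none of the 9 members was among the variable genes when eligible (0). Clusters were named with at least 3 markers, each 2-fold higher and in at least 10% of cells. Names were rebuilt here and are not the authors' own. A cluster was left unnamed when an erythroid name came with a median haemoglobin share under 75%, or another name with over 10%. This rule left 17.6% of KO and 1.73% of WT cells unnamed. Among them cluster 16 met B markers and cluster 18 neutrophil markers. Progenitor-like, plasma-like, hepatocyte-like and unnamed cells (2837 KO and 879 WT) entered no class comparison.

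UMIs were summed per class and library and compared as a log2 ratio of CPM plus a pseudocount of 1 for genes with at least 20 UMIs. Sums carry exact Poisson, ratios conditional binomial, and shares Clopper-Pearson intervals at 95%. The interval code was tested on simulated data. UMIs of 1 cell are not independent draws from the tissue, so intervals cover counting error only. Named genes were the members, 4 lists of related genes and the 10 non-members of most like pattern. Members, lists and motifs were chosen with earlier results of these data known. Alternatives were DESeq2 1.42.0 size factors, TMM factors from edgeR 4.0.16, pseudocounts of 0.1 and 10, other thresholds and filters, haemoglobin or free RNA removed, thinning, doublets kept, clustering with the members, and single clusters. Weighting KO clusters to the WT makeup was chosen after seeing the data. A total of 1 gene of these lists is not reported here, and counts of its list leave it out.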

Additional observations from a re-analysis of the deposited data

How the results depend on the processing

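Of 954 recomputed member values 928 were below 0, 200 moved beyond their counting interval and 6 whose interval had left out equality changed sign. These were Tap2 in NK-ILC1-like cells (0.20 in cluster 8, 0.048 with KO weighted to the WT makeup), Tapbp in monocyte-macrophage-like cluster 14 (0.069), Psmb10 in neutrophil-like cluster 13 (0.050), and, with free RNA subtracted, erythroid-like Psmb9 (1.54) and Psme2 (0.40). Tap2 in pDC-like cells, whose interval held equality, was at 0.047 to 0.24 in 5 settings. Of 130 counts of members called lower, 116 stayed within 1.5 times. Each count here stands beside the share of all genes called. At a 2-fold threshold the count was 3 in T-like (7.68%) and NK-ILC1-like (8.01%), 2 in B-like (1.96%) and 1 in DC-like cells (2.75%). Within single clusters it was 3 in cluster 0 (9.38%), 1 in cluster 11 (16.1%), 3 in cluster 8 (16.7%), 5 in cluster 14 (24.3%) and 4 in cluster 13 (21.7%). In NK-ILC1-like cells it was 3 without cells over 10% haemoglobin (13.5%) and 3 with KO weighted to the WT makeup (16.7%). In erythroid-like cells it was 2 with a pseudocount of 10 (2.47%), 1 with free RNA subtracted (7.62%) and 3 of only 5 members tested with a minimum count of 100 (14.2%). Of the 44 calls in leukocyte classes 41 remained under TMM and under DESeq2 scaling, 37 without cells over 10% haemoglobin and 40 after thinning. Of 58 differences in inducible share 57 stayed below 0 and 10 moved. In T-like cells the difference was -7.78 points in cluster 5, -3.67 in cluster 11 and -4.27 with KO weighted to the WT makeup. In monocyte-macrophage-like cells it was -12.5 after thinning, -17.8 in cluster 6 and -12.2 in cluster 10. In DC-like cells it was -9.20 in cluster 15 and -3.43 in cluster 20, and in neutrophil-like cells -12.6 after thinning and -13.6 in cluster 1. The difference in the share of cells with Psmb8 was -28.3 points without thinning in monocyte-macrophage-like and -4.06 in erythroid-like cells. Erythroid-like cells gave no value with at least 500 genes required or without cells over 10% haemoglobin. The cause of these moves was not tested. No paired analysis was possible because each group has 1 library. With 1 library per group, batch, depth and genotype cannot be told apart. Low counts limit several values: KO gave 223 member UMIs in erythroid-like cells, 288 in T-like cluster 2, 197 in neutrophil-like cluster 12 and 113 in cluster 13, and WT gave 172 in monocyte-macrophage-like cluster 14.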

Other observations

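Among cells outside the compared classes, the progenitor-like cluster 19, led by Mpo, Elane and Prtn3, held 53 KO and 505 WT cells. There Psmb8 had 271 CPM in KO and 475 CPM in WT, Tap1 had 85.9 CPM in KO and 171 CPM in WT, and Tap2 had 108 CPM in KO and 92.3 CPM in WT, with a Tap2 interval that held no difference. Of the 9 members 5 were called lower, with 24.2% of all genes tested in that cluster, and the inducible share was 60.7% in KO and 65.6% in WT. The unnamed cluster 7, led by Il4, Socs2 and Rec114, held 1367 KO and 92 WT cells, and 6 members were called lower, with 20.4% of all genes. It met 8 erythroid markers at a median haemoglobin share of 43.5% and was left unnamed for that reason. Its inducible share was 75.1% in KO and 76.0% in WT.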
